A study of Mus musculus with 6 samples.

Results

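The genes described here are 33 genes of inhibitory transmission in the mouse brain: 9 subunits of the GABA-A receptor, 9 genes of the GABA-B receptor, GABA synthesis, transport and chloride balance and the synaptic scaffold, and 15 markers of interneurons. They were taken by name from a list drawn up with earlier results of these data known, each matched 1 Ensembl identifier among the 56941 identifiers counted, and all 33 had enough counts to be tested. The study sequenced poly(A) RNA of the ventral hippocampus from 6 mice, 3 with the genotype NEGR1_overexpression and 3 with the genotype NEGR1_control, to ask what raised NEGR1, a neuronal adhesion molecule, does to memory and to anxiety- and depression-like behaviour. The strain, sex, age, the promoter or vector behind the overexpression and what the control mice carried are not stated in these sources, which limits what the overexpression group can stand for. Values below are normalised read counts (CPM, scaled to the same effective total in every library), and fold changes and differences are overexpression over or minus control.

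GABA is the main inhibitory transmitter of the forebrain. GABA-A receptors are chloride channels built as a ring of subunits, and the choice of alpha, beta, gamma or delta subunits sets where the channel sits and how it responds. GABA-B receptors are G protein-coupled pairs of a ligand-binding and a signalling subunit. In the hippocampus, GABA is made by interneurons, which fall into classes that arise in the medial or the caudal ganglionic eminence and are told apart by calcium-binding proteins, transcription factors and receptors.

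None of the 33 genes differed between overexpression and control mice beyond the threshold: 0 passed an adjusted p of 0.05 in edgeR's quasi-likelihood test, where 0.0465% of the 19354 genes tested did. At an unadjusted p under 0.05 there were 2 of 33 genes, the receptor subunit Gabrg1 and the interneuron RNA Dlx6os1, both higher in overexpression libraries, or 6.06% of the genes beside 9.24% of all genes tested in either direction and 4.64% in this one. With a correction for GC content per library neither gene kept an unadjusted p under 0.05, at 0.259 for Gabrg1 and 0.11 for Dlx6os1. Over the alternatives run this count was 0 to 5 of the 33, with 5 in limma-voom and 5 without overexpression replicate 1. Of all 19354 genes, 1872 were under this p in limma-voom and 2317 without that replicate, beside 1788 in the main edgeR fit. The share of the 33 lay above that of all genes in both, and in some other alternatives. DESeq2 and limma-voom also called 0 of the 33 at the adjusted threshold. The adjusted p-values of edgeR ran from 0.487 to 0.992. The groups did not overlap for 3 of the 33, or 9.09%, beside 15.1% of all genes tested. These were Gabbr1, Gabbr2 and Slc12a5, each lower in overexpression libraries, as were 8.07% of all genes tested. In the main fit both shares, 6.06% and 9.09%, lay below the background over both directions and just above it in the direction concerned. Neither is read as a result about these genes. The median log2 fold change of the 33 genes was 0.030, with 19 above 0 and 14 below, beside a median of 0.0015 over all genes tested and 50.4% of them above 0.

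The limits on the fold were narrow for most of these genes. Library totals were 30726110 to 38108394 counts, and the lowest count of a member gene in a library was 409, for Dlx1. The 95% interval of the fold lay within 1.2-fold of no change in either direction for 20 of the 33 genes. It lay within 1.5-fold for 32. Over all 19354 genes tested these counts were 6935 and 13025. Among the 33, Calb2 was the exception to the wider limit, with an interval of 0.924 to 1.60. These intervals come from edgeR's spread between libraries, and a p that missed the threshold does not show that levels were equal.

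**Figure D1:**
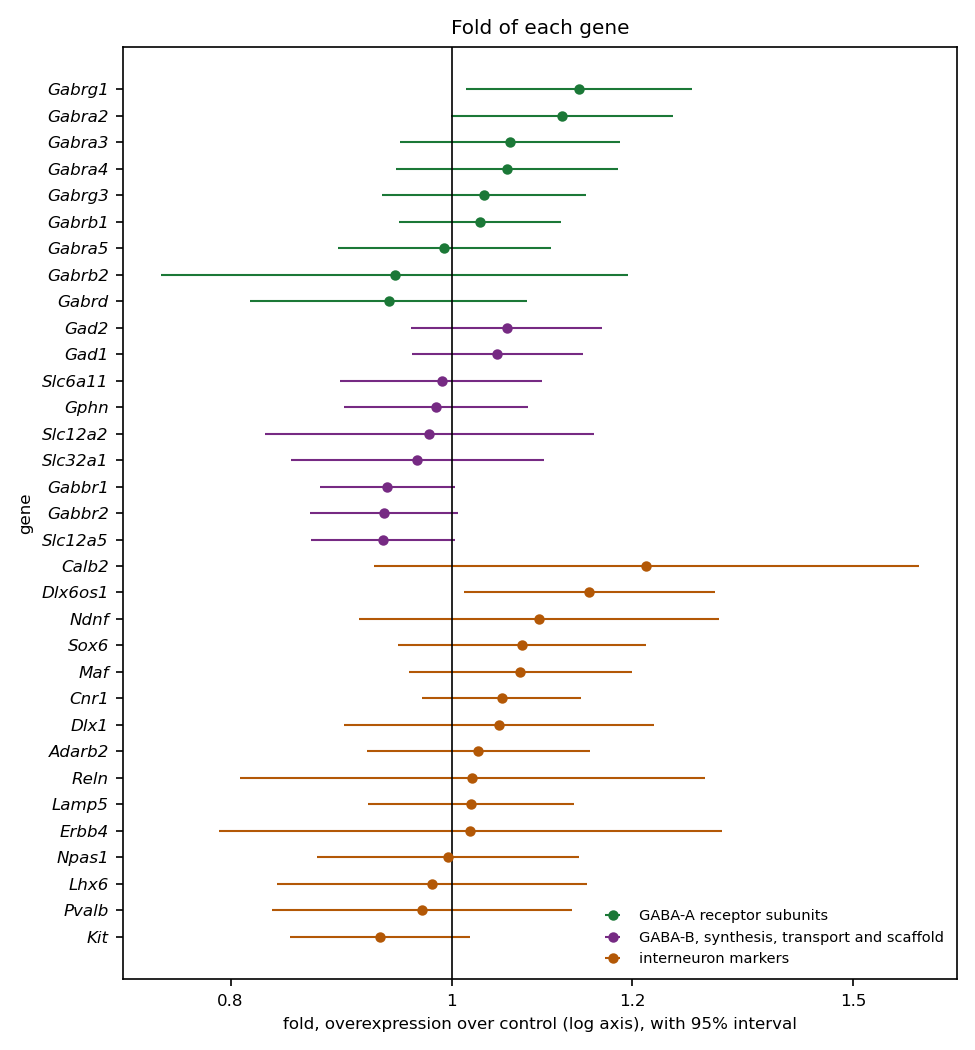
Fold of each of the 33 genes (points; log axis, overexpression over control) with its 95% interval from edgeR (bars), in the 3 groups of genes and in order of fold within each. The folds lie between 0.930 for Kit and 1.22 for Calb2, and the intervals of Gabrg1 and Dlx6os1 alone leave out 1.

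As a check of the labels, Negr1 itself had 185, 199 and 195 CPM in the overexpression libraries and 181, 168 and 179.9 CPM in the control libraries. The groups did not overlap, as for 15.1% of all genes tested, and the fold was 1.09 (95% interval 1.01 to 1.19, edgeR adjusted p = 0.488). An exact permutation test gave p = 0.1, the smallest that 3 libraries against 3 can give. This check thus does not establish by itself that Negr1 RNA was raised in the overexpression libraries. Markers of neurons were present throughout, with the pan-neuronal gene Rbfox3 at 206 to 226 CPM and the excitatory neuron gene Slc17a7 at 1212 to 1470 CPM over the 6 libraries. In overexpression replicate 1 the choroid plexus list of 8 genes summed to 736 CPM, against 23.7 to 69.4 CPM in the other 5 libraries, and the dentate granule cell list of 10 genes was at its lowest, 426 CPM against 485 to 693 CPM.

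Promoter sequence is shown for the 3 genes whose groups did not overlap and for Gabrg1, the gene with the smallest p of the 33, so that a reader can see how different these start regions are. Each line holds the 250 bases before a RefSeq start in GRCm38.p6, on the gene's strand, 5′ to 3′, and Slc12a5 has a pair of starts. Capitals mark GC boxes (GGGCGG on either strand), of which the Gabrg1 window and the first Slc12a5 window hold none.
Gabbr1, chr17:37045716-37045965, plus strand: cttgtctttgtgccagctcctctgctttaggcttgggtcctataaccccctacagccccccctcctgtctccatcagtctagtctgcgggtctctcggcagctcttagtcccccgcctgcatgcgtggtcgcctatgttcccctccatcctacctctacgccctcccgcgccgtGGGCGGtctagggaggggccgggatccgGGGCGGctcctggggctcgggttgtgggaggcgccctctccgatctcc
Gabbr2, chr4:46991715-46991964, minus strand: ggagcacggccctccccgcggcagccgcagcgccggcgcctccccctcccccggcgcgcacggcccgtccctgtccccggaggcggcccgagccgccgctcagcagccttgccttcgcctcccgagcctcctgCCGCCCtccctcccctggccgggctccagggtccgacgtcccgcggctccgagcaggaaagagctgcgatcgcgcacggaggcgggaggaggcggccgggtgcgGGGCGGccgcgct
Slc12a5 upstream start, chr2:164960596-164960845, plus strand: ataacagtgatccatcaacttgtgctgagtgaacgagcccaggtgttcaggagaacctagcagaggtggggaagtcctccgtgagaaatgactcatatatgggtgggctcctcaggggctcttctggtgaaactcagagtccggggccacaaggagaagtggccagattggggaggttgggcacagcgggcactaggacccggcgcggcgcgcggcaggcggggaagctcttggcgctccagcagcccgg
Slc12a5 downstream start, chr2:164967738-164967987, plus strand: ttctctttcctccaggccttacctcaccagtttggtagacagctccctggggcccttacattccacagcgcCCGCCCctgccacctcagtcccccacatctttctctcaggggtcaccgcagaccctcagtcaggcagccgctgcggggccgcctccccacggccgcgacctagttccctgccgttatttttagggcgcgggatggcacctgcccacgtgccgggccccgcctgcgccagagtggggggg
Gabrg1, chr5:70842618-70842867, minus strand: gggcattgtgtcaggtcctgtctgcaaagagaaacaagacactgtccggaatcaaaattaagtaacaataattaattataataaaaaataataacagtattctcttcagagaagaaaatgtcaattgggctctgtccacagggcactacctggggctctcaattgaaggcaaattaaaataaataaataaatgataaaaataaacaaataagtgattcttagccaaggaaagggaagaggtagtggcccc

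The Gabbr2 window was 80.8% G and C with 37 CpG dinucleotides, the Gabbr1 window 66.0% with 16, and the Slc12a5 windows 61.2% with 13 and 67.2% with 16. That of Gabrg1 was 35.6% G and C with 1 CpG. Over all 32851 RefSeq windows of this length, the medians were 52.4% and 6 CpG, and over the 46 windows of the 28 member genes in the table they were 58.6% and 11. A GC box was found in 19 of those 46 windows, or 41.3%, beside 32.7% of all windows. A TATAAA box was found in 6 of the 46, or 13.0%, beside 12.4%, with Gad1 and Gabrb2 among the genes. Windows of a gene can overlap, as for Kit and Gabra3, so a motif can be counted more than once. The bases after the start matched an annotated transcript of the gene for 36 of the 46 windows. The CRE motif TGACGTCA occurred in 0 of the 46, beside 1.55% of all windows. All motifs were sought on both strands. Such matches describe letters in a window and say nothing about binding.

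To compare levels between genes, counts were divided by the merged exon length of each gene and scaled to a fixed total per library (TPM, computed here). Gabbr1, the ligand-binding GABA-B subunit, was the highest of the 33 at 363 to 395 TPM over the 6 libraries, followed by Slc12a5, the chloride exporter KCC2, at 289 to 322 TPM. Below them came Gabra5, the alpha subunit enriched in hippocampal extrasynaptic receptors, at 218 to 261 TPM, and Gabbr2, the signalling subunit, at 210 to 239 TPM, whose ranges overlapped. Cnr1, the cannabinoid receptor of cholecystokinin interneurons and of some pyramidal cells, Gad1 and Slc6a11 formed the next set, between 140 and 183 TPM with overlapping neighbours. At the low end lay Sox6, Ndnf and Adarb2, each between 7.17 and 9.90 TPM. From Lamp5 down to Sox6 no gene was separated from its next lower neighbour in the order, since the ranges over the 6 libraries overlapped. These levels depend on the annotated exon length, which counts every annotated transcript of a gene.

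**Figure D2:**
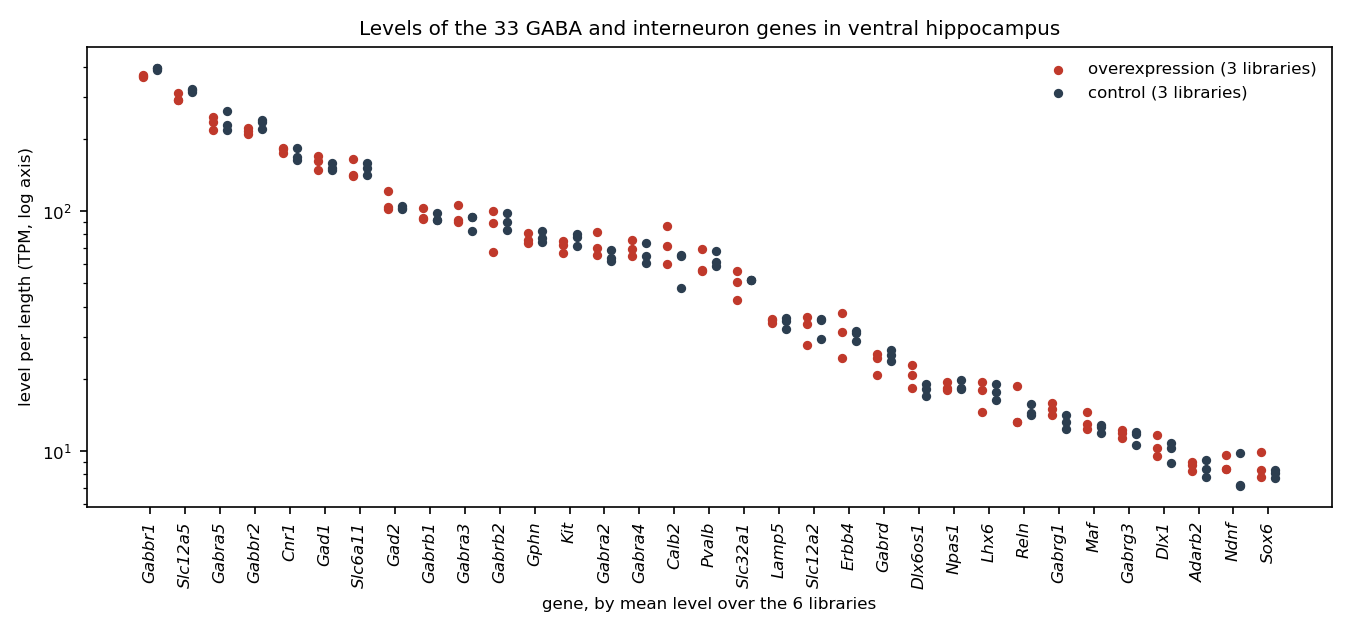
Level of each gene per exon length (TPM, log axis) in the 3 overexpression libraries and the 3 control libraries, with genes in order of their mean over all 6. Levels span from Gabbr1 at 363 to 395 TPM to Sox6 at 7.76 to 9.90 TPM, and within a gene the points of both groups lie close together.

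The GABA-A receptor subunits did not move as a group. Of the 9, 6 had a log2 fold change above 0 and 3 below, with a median of 0.046, 0 passed the adjusted threshold, and the groups overlapped for each of the 9. Gabrg1, a gamma subunit that in the forebrain is also made by astrocytes, had 29.9, 28.6 and 26.7 CPM in overexpression libraries and 24.8, 23.2 and 26.9 CPM in control libraries. Control replicate 3 lay above overexpression replicate 3, and the other libraries were separated. Its log2 fold change was 0.19 ± 0.076 (SE; edgeR adjusted p = 0.487, unadjusted p = 0.0295). Gabra2, an alpha subunit of synapses on the axon initial segment, had 119.8, 129 and 149.6 CPM in overexpression libraries and 125, 117 and 114 CPM in control libraries. Overexpression replicate 3 was high here and overexpression replicate 1 lay below control replicate 1 (log2 fold change 0.16 ± 0.075, adjusted p = 0.542). Both genes are poor in G and C in their longest transcript, at 35.3% for Gabrg1 and 38.4% for Gabra2. With a correction for GC content per library the log2 fold change was 0.10 for Gabrg1 and 0.086 for Gabra2.

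Gabrb2, a beta subunit of the most common synaptic receptors, varied most between libraries of this family. It had 136, 104 and 152 CPM in overexpression libraries and 127, 149 and 139 CPM in control libraries, so the lowest and the highest of the 6 were both overexpression mice. Gabrd, the delta subunit of tonic receptors in dentate granule cells, had 14.2, 17.7 and 16.8 CPM against 17.2, 18.2 and 16.5 CPM in control. Its lowest library was overexpression replicate 1, in which the dentate granule cell list was also lowest; the part of dentate content in this value was not tested. Gabra4, the alpha subunit that pairs with delta, was at 94.8 to 111 CPM against 89.6 to 107 CPM in control. Gabra5 was at 155 to 178 CPM against 155 to 186 CPM, and Gabra3, an alpha subunit prominent in early development, at 85.3 to 99.3 CPM against 77.2 to 90.0 CPM. Gabrb1 was at 310.1 to 342 CPM against 304 to 324 CPM and the gamma subunit Gabrg3 at 32.6 to 35.0 CPM against 30.2 to 34.6 CPM. For these 7 subunits the edgeR adjusted p was at least 0.761.

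In RefSeq order, the subunit genes lie in clusters. Gabrg1 and Gabra2 neighbour each other on chromosome 5, with Gabra4 and Gabrb1 next to each other just beyond 1 further coding gene, Cox7b2. All 4 genes of this cluster had a log2 fold change above 0, at 0.19, 0.16, 0.081 and 0.041 in that order along the chromosome, and 0 passed the threshold. Gabra4 and Gabrb1 share 46 bases of exon on opposite strands. On chromosome 7, Gabrg3 and Gabra5 had log2 fold changes of 0.046 and -0.010. Gabrb1 was at -0.018 with the GC correction, so the common direction of the chromosome 5 cluster does not hold under that setting.

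When the level per length of each subunit was taken as a share of its class, the shares of the member subunits were as follows. Gabra5 made 37.0 ± 2.57% of alpha subunit RNA in overexpression libraries and 38.1 ± 1.84% in control libraries (SD, n = 3 each). Gabra3 held 15.2 ± 1.70% and 14.7 ± 1.79%, Gabra2 11.4 ± 0.899% and 10.5 ± 0.859%, and Gabra4 11.1 ± 0.511% and 10.8 ± 0.620%. Among beta subunits Gabrb1 made 21.9 ± 0.445% in overexpression and 21.4 ± 0.432% in control libraries and Gabrb2 19.3 ± 2.66% and 20.6 ± 0.716%. The groups overlapped for each of these shares. Among gamma and delta subunits Gabrg1 had a share of 10.8, 10.4 and 9.17% in overexpression libraries and of 8.84, 7.92 and 9.15% in control libraries. Those groups did not overlap, with 9.17% in overexpression replicate 3 just above the 9.15% of control replicate 3. Gabrg3 held 7.97 ± 0.293% and 7.48 ± 0.337% and Gabrd 15.9 ± 1.84% and 16.4 ± 0.865%, with overlap in both. These shares carry no test of their own.

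The GABA-B receptor genes were both slightly lower in overexpression libraries, without overlap. Gabbr1 had 685, 685 and 677 CPM in overexpression libraries and 732, 730.4 and 724 CPM in control libraries. The coefficient of variation was 0.677% in overexpression and 0.573% in control libraries, and the log2 fold change was -0.094 ± 0.046 (SE), a fold of 0.937 with a 95% interval of 0.875 to 1.003. Gabbr2 had 354, 349.7 and 337 CPM against 376, 383 and 356 CPM in control, with a log2 fold change of -0.099 ± 0.050 and an interval of 0.867 to 1.006. edgeR's adjusted p was 0.563 for Gabbr1 and 0.585 for Gabbr2. The ratio of Gabbr2 to Gabbr1 counts within a library was 0.516, 0.510 and 0.498 in overexpression and 0.514, 0.524 and 0.492 in control mice, with no difference beyond the spread (two-sided exact permutation p = 0.9). Slc12a5 had 550.3, 521 and 517 CPM in overexpression libraries and 567, 557 and 580.1 CPM in control libraries, again without overlap (log2 fold change -0.10 ± 0.049; adjusted p = 0.564). With the GC correction the log2 fold changes were -0.064, -0.053 and -0.047 for Gabbr1, Gabbr2 and Slc12a5. Marker lists of other cells differed in direction. The 11 genes of oligodendrocytes and their precursors summed to 3189 to 3753 CPM in overexpression libraries and to 3956 to 4916 CPM in controls, without overlap, with 10 of 11 below 0. The astrocyte gene Gfap averaged 356 ± 39.9 CPM in overexpression libraries and 508 ± 37.2 CPM in controls (SD, n = 3 each; edgeR adjusted p = 0.0862), whereas 4 of the 10 astrocyte genes were above 0 and 6 below. The 6 excitatory neuron genes summed to 5325 to 5723 CPM in overexpression libraries and to 5667 to 6158 CPM in controls. The 6 pan-neuronal genes summed to 4124 to 4298 CPM and 4280 to 4693 CPM, and both sums overlapped between groups. All 6 excitatory neuron genes had a log2 fold change below 0, with a median of -0.15. Of the pan-neuronal genes 1 was above 0 and 5 were below, with a median of -0.042. All 10 dentate granule cell genes had a log2 fold change above 0, with a median of 0.25, and the groups overlapped for each of the 10. Their sums were 426, 693 and 660 CPM in overexpression libraries and 485 to 529 CPM in controls, so overexpression replicate 1 lay below every control. The part of these lists in the GABA-B receptor and Slc12a5 values was not tested, and in bulk tissue fewer cells of a type and less RNA per cell cannot be told apart.

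**Figure D3:**
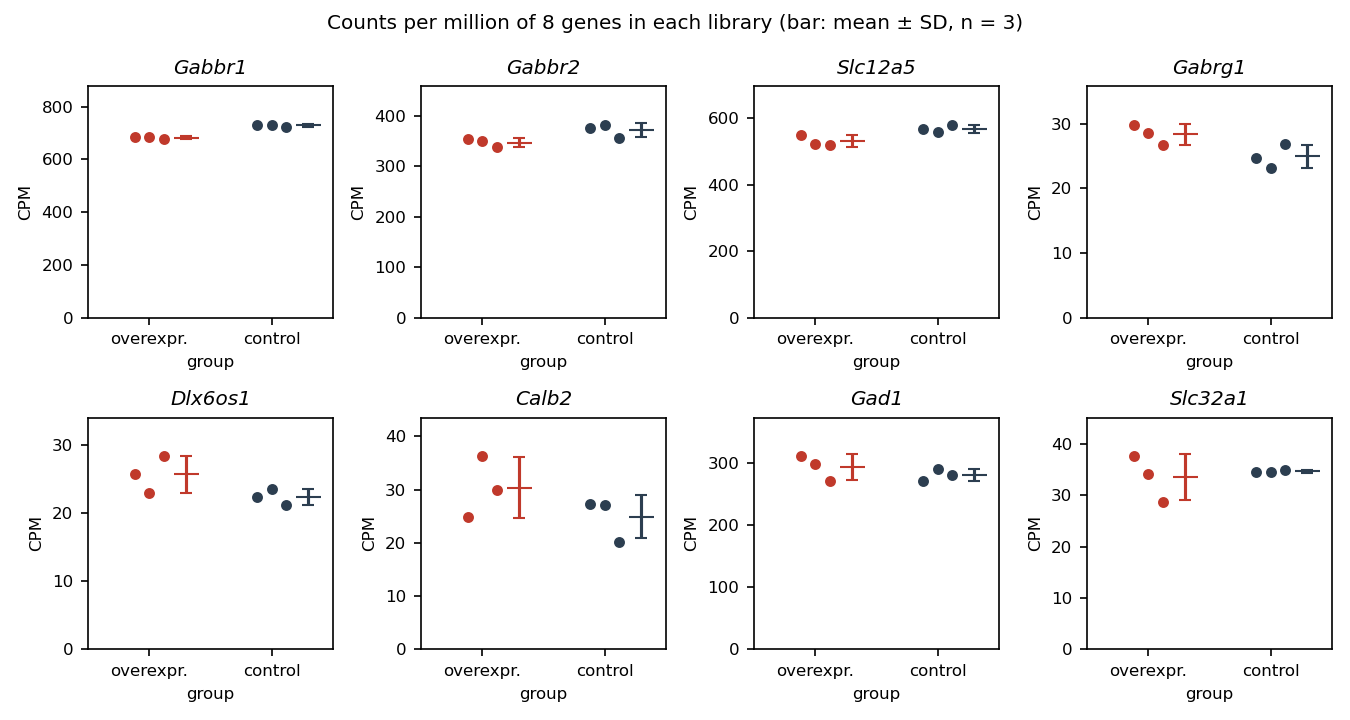
CPM of 8 genes in each library (points), with the mean and SD of each group beside them (n = 3), on axes from 0. Gabbr1, Gabbr2 and Slc12a5 show overexpression points below the control points, at folds of 0.937, 0.934 and 0.933, while the points of Gabrg1, Dlx6os1, Calb2, Gad1 and Slc32a1 overlap between groups.

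Genes of GABA synthesis and packaging showed no difference beyond the spread. Gad1, the enzyme that makes most of the basal GABA pool, had 311, 297 and 271 CPM in overexpression libraries and 270.2, 289 and 279 CPM in control libraries. Gad2, the synaptic isoenzyme, had 171, 144 and 147 CPM against 143, 148 and 146 CPM. In both, the highest value came from overexpression replicate 1 and the others overlapped. Slc32a1, the vesicular GABA transporter, had 37.7, 34.2 and 28.7 CPM in overexpression libraries, spread on both sides of the 34.5, 34.6 and 35.0 CPM of the control libraries. The ratio of Gad2 to Gad1 was 0.526 ± 0.0358 in overexpression and 0.521 ± 0.00823 in control libraries (SD, n = 3 each; two-sided exact permutation p = 1). The edgeR intervals of the fold were 0.960 to 1.14 for Gad1, 0.960 to 1.16 for Gad2 and 0.850 to 1.098 for Slc32a1.

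Uptake, chloride balance and scaffold genes were likewise close. Slc6a11, the GABA transporter of astrocytes, had 198, 172 and 169.7 CPM in overexpression libraries and 182, 170.2 and 193 CPM in control libraries. Slc12a2, the chloride importer NKCC1, which glia, choroid plexus and other non-neuronal cells also make, had 94.4, 73.2 and 88.9 CPM against 76.6, 93.1 and 92.5 CPM. Its ratio to Slc12a5, the importer against the exporter, was 0.172, 0.140 and 0.172 in overexpression and 0.135, 0.167 and 0.160 in control mice (two-sided exact permutation p = 0.5). The groups overlapped, with the lowest value in control replicate 1. Gphn, which encodes the scaffold gephyrin, was at 66.2 to 73.6 CPM against 67.1 to 74.2 CPM. Across the 5 pairs of genes compared as ratios within a library, the smallest exact p was 0.2, for Gabrd to Gabra4, at 0.158 ± 0.0130 in overexpression and 0.179 ± 0.00783 in control libraries. Adjusted over the 5 ratios every p was 1, and 3 libraries against 3 cannot give a p below 0.1. Over the 9 genes of the GABA-B receptor, synthesis, transport and scaffold the median log2 fold change was -0.032, with 2 above 0 and 7 below, and it was 0.0099 without overexpression replicate 3 and -0.097 without overexpression replicate 1.

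Interneuron markers overlapped between the groups in all 15 genes. Their median log2 fold change was 0.039, with 11 above 0 and 4 below, and it was 0.0025 without overexpression replicate 1. Lhx6, the transcription factor that specifies interneurons of the medial ganglionic eminence, had 22.2, 20.9 and 16.7 CPM in overexpression libraries and 20.2, 18.8 and 22.1 CPM in control libraries. Pvalb, the calcium-binding protein of fast-spiking basket cells, had 17.3, 14.2 and 14.2 CPM against 14.7, 15.2 and 17.2 CPM. The ratio of Pvalb to Lhx6 was 0.768 ± 0.0835 in overexpression and 0.771 ± 0.0431 in control libraries (two-sided exact permutation p = 1). Sox6, which acts after Lhx6 in those cells and is also present in glial precursors, was at 27.8 to 35.1 CPM against 27.5 to 30.0 CPM, and Maf, a later factor of the same lineage that macrophages make too, at 24.7 to 28.7 CPM against 23.5 to 25.3 CPM. Erbb4, the neuregulin receptor of these interneurons, had 111, 72.6 and 93.2 CPM in overexpression libraries and 85.0, 93.8 and 92.7 CPM in control libraries. The overexpression mice thus held both the highest and the lowest Erbb4 value, and its interval of the fold was 0.791 to 1.31.

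Among markers of the caudal lineage and of neurogliaform cells, the highest library was 1.80 times the lowest for Calb2 and 1.10 times the lowest for Lamp5. Calb2, the calcium-binding protein calretinin of vasoactive intestinal peptide interneurons and of other cell types such as mossy cells, had 24.9, 36.3 and 29.9 CPM in overexpression libraries and 27.3, 27.2 and 20.2 CPM in control libraries. Overexpression replicate 1 lay below control replicates 1 and 2, and the log2 fold change was 0.28 ± 0.17 (SE), the highest of the 33 genes (edgeR adjusted p = 0.667). Lamp5, a marker of neurogliaform cells, was at 24.2 to 25.0 CPM against 22.9 to 25.0 CPM, and Ndnf, another such marker, at 20.4 to 23.6 CPM against 17.3 to 23.9 CPM. Adarb2, a marker of the caudal lineage, was at 25.9 to 28.5 CPM against 24.7 to 28.8 CPM and the transcription factor Npas1 at 13.0 to 14.0 CPM against 13.0 to 14.3 CPM. Cnr1 was at 272 to 282 CPM against 251 to 281 CPM. Reln, the secreted glycoprotein of neurogliaform, some somatostatin and Cajal-Retzius cells, had 106, 75.5 and 75.1 CPM in overexpression libraries and 81.3, 80.1 and 89.8 CPM in control libraries. Kit, a receptor tyrosine kinase of some interneurons, had 160.2, 144 and 155 CPM against 153, 172 and 168 CPM, the lowest log2 fold change of the 33 at -0.10 ± 0.061 (adjusted p = 0.635). The list of 6 Cajal-Retzius genes was low throughout, summing to 3.91 to 6.73 CPM in overexpression libraries and to 5.48 to 7.48 CPM in controls.

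Dlx1, a transcription factor kept by a part of mature interneurons, and Dlx6os1 belong to the Dlx genes of forebrain GABA neurons. Dlx6os1, a long noncoding RNA transcribed from the opposite strand of the Dlx5 and Dlx6 locus, had 25.7, 22.9 and 28.3 CPM in overexpression libraries and 22.3, 23.5 and 21.2 CPM in control libraries. Overexpression replicate 2 lay below control replicate 2, and the log2 fold change was 0.20 ± 0.085 (SE; edgeR adjusted p = 0.492, unadjusted p = 0.0333); it was 0.13 with the GC correction. Dlx1 had 15.0, 12.4 and 13.3 CPM against 14.0, 11.5 and 13.4 CPM, and 6.21% of its exon bases lie opposite Dlx1as. These sources do not state the strand setting of the counting, so counts of Dlx1 and of Dlx1as cannot be fully separated. The genes listed as sharing exon bases with Dlx6os1 on the opposite strand, Gm27699 and Gm27905, were not among the identifiers counted. Genes of striatal, septal and amygdalar GABA neurons summed to 287 to 289 CPM over 14 genes in overexpression libraries and 278 to 282 CPM in control libraries. These sums did not overlap. The highest genes of this list were Pde10a at 102.5 to 116.8 CPM and Foxp1 at 86.7 to 94.2 CPM over the 6 libraries. Drd1 lay at 2.13 to 5.31 CPM and Drd2 at 1.34 to 2.92 CPM. Taken singly, the groups did not overlap for 1 of the 12 genes tested, or 8.33%, beside 15.1% of all genes tested. Of the 12, 10 had a log2 fold change above 0 and 2 below, with a median of 0.12, and the smallest edgeR adjusted p was 0.596. The part of such neurons in the Dlx6os1 value was not tested.

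A single library was the highest of the 6 for many of these genes. Overexpression replicate 1 held the highest value of the 6 libraries for 16 of the 33 genes, whereas it was the highest for 16.3% of all genes tested, and the lowest for 1 of the 33, Gabrd. The 16 included Gad1, Gad2, Slc32a1, Pvalb, Lhx6, Sox6, Maf, Dlx1, Reln and Erbb4. This count was made after the values were seen. The other overexpression libraries were the highest for 1 gene (replicate 2) and 5 genes (replicate 3), and the lowest for 4 and 9. The same library had the excess of choroid plexus genes and the low sum of dentate granule cell genes given above, whose part in these values was not tested. Without it, 0 of the 33 genes passed in edgeR's test. The log2 fold change of Reln was then -0.15 in place of 0.030, that of Erbb4 -0.13 in place of 0.028, and that of Gad2 -0.0015 in place of 0.080.

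**Figure D4:**
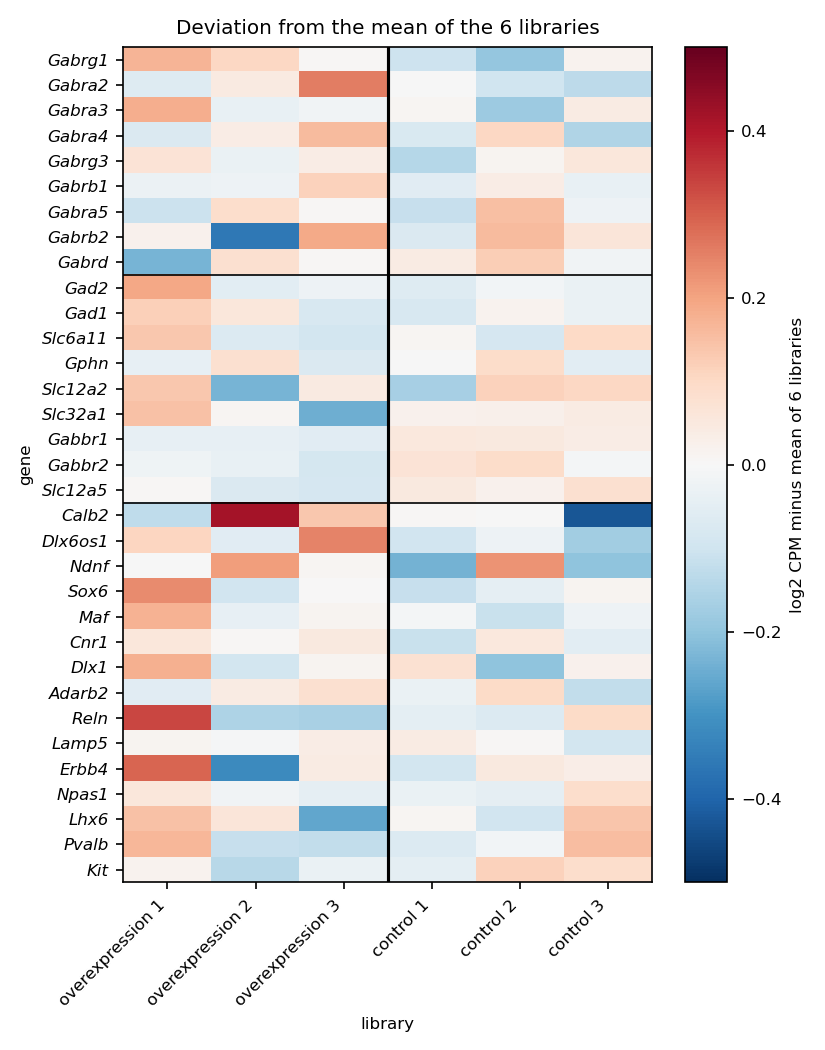
Log2 CPM of each gene in each library minus its mean over the 6 libraries (colour), with overexpression libraries left of the line and control libraries right of it, and horizontal lines between the 3 groups of genes. The column of overexpression replicate 1 is above the mean for most interneuron markers and synthesis genes, and Gabbr1 is below its mean in the 3 overexpression libraries and above it in the 3 control libraries.

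Other genes of the same pathway gave no call either. In 6 lists with 78 genes that are not among the 33, 69 were tested and 0 passed an adjusted p of 0.05 in either direction, while 9, or 13.0% of the 69, had an unadjusted p under 0.05, beside 9.24% of all genes tested. Of 14 synapse organisers 4 were above 0 and 10 below. Gabarapl1 and Gabarapl2, of the GABA-A receptor-associated protein family, were at 389 ± 2.68 CPM against 410.4 ± 12.2 CPM in control and at 89.8 ± 1.31 against 79.9 ± 2.58 CPM (SD, n = 3 each). For Gabarapl2 the unadjusted p was 0.00732 and the edgeR adjusted p 0.394. Kctd12, an auxiliary subunit of GABA-B receptors, had 235 ± 31.7 CPM in overexpression libraries and 205 ± 11.8 CPM in controls, opposite in direction to Gabbr1 and Gabbr2, and Kctd16 19.1 ± 3.36 and 21.1 ± 3.49 CPM.

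Abat, which breaks GABA down, averaged 276 ± 20.5 CPM in overexpression libraries and 282 ± 5.24 CPM in controls. Slc6a13, a GABA transporter of the meninges, was at 8.07 ± 1.84 and 5.39 ± 1.51 CPM (edgeR adjusted p = 0.473). It is 1 of the 7 meningeal fibroblast genes, which summed to 108 to 137 CPM in overexpression libraries and 78.0 to 123 CPM in controls. All 7 had a log2 fold change above 0, with a median of 0.56. In edgeR 5 of the 7, or 71.4%, had an unadjusted p under 0.05, beside 9.24% of all genes tested, and the smallest adjusted p was 0.189. The part of meningeal tissue in the Slc6a13 value was not tested. Of the chloride and cation list, Wnk1, a kinase that inhibits KCC2 and activates NKCC1, had 353 ± 31.3 and 381 ± 21.8 CPM, the chloride channel gene Clcn3 220.0 ± 8.10 and 219 ± 11.2 CPM, and Oxsr1, a kinase downstream of Wnk1, 61.6 ± 4.11 and 69.3 ± 0.606 CPM (adjusted p = 0.423). Of 30 tested interneuron genes that are not members, 12 were above 0 and 18 below; Kcnc1, a potassium channel of fast-spiking cells, was at 202 ± 6.74 and 207 ± 5.92 CPM, Nos1, the neuronal nitric oxide synthase, at 179 ± 4.72 and 181 ± 14.5 CPM, and Nr2f2, a transcription factor of the caudal lineage, at 53.8 ± 4.15 and 44.9 ± 5.67 CPM (adjusted p = 0.423).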

How the data were processed

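Strand-specific libraries (dUTP) were made from poly(A) RNA of ventral hippocampus, per the labels' protocols. The authors deposited raw counts, whole numbers for every Ensembl gene with no scaling. Trimmomatic 0.36, STAR 2.7.10 and featureCounts 2.0.3 are listed, with mm10 and GRCm39 as builds, in the submitters' processing notes, which state no role for each. The annotation release and strand setting are not given in the sources here. All 6 columns were used (0 unused), and identifiers without a symbol held 0.264 to 0.348% of a library's counts. Groups came from the labels, and the series' design text names separate mice.

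Differences were tested by edgeR (4.0.16, R 4.3.3): robust quasi-likelihood fit, TMM scaling, default filter on low counts (19354 genes kept), group as sole term, Benjamini-Hochberg adjustment over all genes tested, threshold 0.05. Standard errors came from the F statistic. The fit was tested on simulated data. Alternatives were DESeq2 1.42.0, limma 3.58.1 (voom), other scalings and filters, the replicate block, a GC-content offset (available for 97.7% of genes tested) and each library left out. Exon lengths and GC content came from GENCODE M21 (GRCm38), and reads on exons shared between genes may have been assigned either way. Every pair of libraries differed by more than sampling noise (chi-square per degree of freedom 4.28 to 12.9). Members and lists were chosen with earlier results of these data known. Named are the 33 genes, Negr1 and, from each pathway list, the 2 with the highest mean and the 1 with the smallest p. Some genes that this rule names are not reported here.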

Additional observations from a re-analysis of the deposited data

How the results depend on the processing

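The count of member genes past an adjusted p of 0.05 was 0 in each of the alternatives run, the leave-one-out fits included, and 0 at an adjusted p of 0.1 in the edgeR fit; the smallest adjusted p was 0.0902, for Calb2 with no filter. Deviations of same-numbered libraries correlated at 0.0172 to 0.0232, and those of libraries with different numbers at -0.0344 to 0.0148. These values do not settle whether the replicate numbers mark a pairing. Over all genes tested, 9 passed, against 107 with DESeq2, 304 with no filter, 5 with at least 1 CPM in 3 libraries, 26 with the replicate block, 29 with the replicate block and the GC offset, 19 at an adjusted p of 0.1 and 2 to 62 with a library left out. Some small log2 fold changes changed sign, and the cause was not tested: 0.019 for Gabra5, -0.011 for Reln with limma-voom; -0.018 for Gabrb1, 0.020 for Slc6a11, 0.016 for Lhx6, -0.033 for Erbb4, 0.046 for Npas1 with the GC offset; -0.018 for Gabrb1, 0.018 for Slc6a11, 0.013 for Lhx6, -0.052 for Erbb4, 0.045 for Npas1 with the replicate block and GC offset; 0.0044 for Npas1 with upper-quartile factors. For log2 ratios with the GC offset the differences were -0.024 for Slc12a2 over Slc12a5, -0.014 for Gad2 over Gad1, 0.012 for Gabbr2 over Gabbr1. With a library left out, a sign changed in at least 1 fit for these ranges: -0.064 to 0.067 for Gabra5, -0.0044 to 0.070 for Gabrb1, -0.20 to 0.055 for Gabrb2, -0.0059 to 0.086 for Gabrg3, -0.072 to 0.018 for Gphn, -0.0015 to 0.12 for Gad2, -0.14 to 0.054 for Slc32a1, -0.090 to 0.032 for Slc6a11, -0.12 to 0.066 for Slc12a2, -0.14 to 0.024 for Pvalb, -0.15 to 0.12 for Reln, -0.11 to 0.087 for Lhx6, -0.012 to 0.13 for Dlx1, -0.13 to 0.17 for Erbb4, -0.0081 to 0.060 for Lamp5, -0.010 to 0.10 for Adarb2, -0.035 to 0.039 for Npas1, -0.025 to 0.16 for Slc12a2 over Slc12a5, -0.023 to 0.069 for Gad2 over Gad1, -0.030 to 0.016 for Gabbr2 over Gabbr1, -0.083 to 0.075 for Pvalb over Lhx6. The medians of the 3 groups of genes moved by less than the spread between libraries in every alternative run. That spread (SD of 0.0459, 0.0751 and 0.0571 in log2) was close to the medians themselves or larger, so this does not show that they were stable. The GABA-A median was 0.0014 with the GC offset. With a library left out, the GABA-B, synthesis, transport and scaffold median ran from -0.097 to 0.0099 and that of interneuron markers from 0.0025 to 0.088.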
